A study of Mus musculus with 6 samples.

Results

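The proteasome and immunoproteasome subunit genes were examined in mouse testis, a group of 47 of the 14998 genes in the deposited table. The members were chosen by symbol alone, as every gene named Psma, Psmb, Psmc, Psmd, Psme, Psmf or Psmg followed by a number, so no measured value entered the choice. By role they were 7 alpha-ring genes, 3 constitutive and 3 immune catalytic genes, 4 other beta-ring genes, the germ cell alpha subunit Psma8, 6 base ATPases, 3 other base genes, 8 lid genes, 4 activators, 1 inhibitor and 7 assembly chaperones. Of the 47 genes, 46 had a mean of at least 1 FPKM and were tested. Psmb9 did not pass that filter in the main fit, and the thymus-specific catalytic gene Psmb11 was not in the table.

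RNA was sequenced from whole testes in 6 libraries of male Mus musculus. The 3 control libraries carried the genotype Lats1flox/flox;Lats2flox/flox, and the 3 knockout libraries carried those same floxed alleles together with Amh-cre. The Amh promoter of the transgene is known for driving Cre in Sertoli cells, which nurse the germ cells, and the floxed genes encode kinases of the Hippo pathway. The sample labels name testes while the design text of the series names adrenal glands. The age of the animals is not given in the labels, and no label says that the libraries came from different animals. The p-values below therefore describe only how far these libraries spread, which may be technical.

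The proteasome is the protease that degrades proteins tagged with ubiquitin. Its barrel-shaped core particle is a stack of alpha rings and beta rings, and only some beta subunits cut peptide bonds. A regulatory particle made of a base, whose ATPases unfold the substrate, and a lid, which removes ubiquitin, feeds the core. In cells exposed to interferon gamma, and constitutively in many leukocytes, Psmb8, Psmb9 and Psmb10 are built into new cores in place of Psmb5, Psmb6 and Psmb7. The resulting immunoproteasome cuts proteins into peptides that bind well to MHC class I molecules.

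The sequences of 250 bases before the start sites of catalytic genes are shown because the immune and constitutive genes moved apart in these libraries. They are from RefSeq (GRCm38.p6), read 5′ to 3′ on the strand of the gene, with capitals marking a match to 1 of 4 short motifs.
Psmb8 (chr17:34197945-34198194, plus strand, capitals TTCNNNGAA): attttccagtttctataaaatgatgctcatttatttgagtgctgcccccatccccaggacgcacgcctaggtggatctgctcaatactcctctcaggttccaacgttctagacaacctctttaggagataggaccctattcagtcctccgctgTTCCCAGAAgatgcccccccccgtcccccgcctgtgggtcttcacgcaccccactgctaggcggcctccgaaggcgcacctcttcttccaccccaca
Psmb9 (chr17:34187331-34187580, minus strand, capitals CCAAT read on the other strand): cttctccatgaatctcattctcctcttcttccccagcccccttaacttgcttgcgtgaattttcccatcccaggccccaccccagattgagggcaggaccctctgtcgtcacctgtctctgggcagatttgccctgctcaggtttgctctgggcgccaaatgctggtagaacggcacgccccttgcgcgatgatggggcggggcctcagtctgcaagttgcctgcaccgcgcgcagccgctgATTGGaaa
Psmb10 (chr8:105938393-105938642, minus strand, no match): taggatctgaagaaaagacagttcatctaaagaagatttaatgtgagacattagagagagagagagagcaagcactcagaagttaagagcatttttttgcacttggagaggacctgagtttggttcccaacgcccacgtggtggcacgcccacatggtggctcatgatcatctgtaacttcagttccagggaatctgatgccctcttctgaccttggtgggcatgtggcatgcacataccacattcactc
Psmb5 (chr14:54617996-54618245, minus strand, capitals TGACNNNGC): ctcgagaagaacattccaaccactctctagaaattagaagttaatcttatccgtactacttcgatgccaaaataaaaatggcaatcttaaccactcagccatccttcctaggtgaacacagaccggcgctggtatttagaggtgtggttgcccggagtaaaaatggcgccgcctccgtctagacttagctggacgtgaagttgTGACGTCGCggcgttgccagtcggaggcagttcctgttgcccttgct
Psmb6 (chr11:70525107-70525356, plus strand, capitals TGACNNNGC): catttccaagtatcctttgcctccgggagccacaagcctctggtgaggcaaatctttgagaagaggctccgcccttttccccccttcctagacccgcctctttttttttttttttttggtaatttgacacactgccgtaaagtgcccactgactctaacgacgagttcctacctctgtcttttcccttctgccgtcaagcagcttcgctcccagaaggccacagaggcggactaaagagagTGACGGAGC

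The motifs searched on both strands were TTCNNNGAA (a gamma-activated site), the interferon response element (a pair of GAAA repeats with any 2 bases between them), TGACNNNGC (an antioxidant response element, bound by the NRF factors) and CCAAT (the CCAAT box). The search also covered the 50 bases after each start, and 42 windows were found for 39 members. TTCNNNGAA was in the windows of Psmb8, Psmd2 and Psmg1, which is 7.14% of member windows against 8.3% of all 32851 windows. In the Psmb8 window the match began 97 bases before the start. The interferon response element was in 11.9% of member windows against 3.44% of all, and its members were Psmb3, Psmd4, Psmd9, Psme1 and Psmg4, none of them an immune catalytic gene. TGACNNNGC was in 14.3% of member windows (6 of 42) against 12.4% of all windows, and CCAAT in 31.0% against 37.4%. A match to so short a motif is a description of the letters, and the printed windows of Psmb8 and Psmb9 lie inside the gene models of the deposited table, which begin at 34197721 for Psmb8 and end at 34187764 for Psmb9. The Psmb9 window also runs into Tap1, from 34187553.

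Levels are given as the FPKM that the authors deposited, a level per length of exon and per sequencing depth. Single reads were identifiable in them, which gave 9490733 to 13620086 reads per library. Libraries of a group resembled each other (Spearman correlation across genes 0.987 to 0.996) more than those of the other group (0.845 to 0.871). Control 3 lay apart from the other controls on the second principal component, at -15.8 against 7.85 and 8.26, a component with 2.99% of the variance. The level of the floxed genes was 15.7 ± 0.569 FPKM in control and 12.7 ± 0.239 in knockout libraries for Lats1, and 15.6 ± 1.22 and 18.0 ± 0.21 for Lats2 (mean ± SD, n = 3). The labels do not say which exons are floxed and a whole testis holds many cell types besides Sertoli cells, so these levels do not check the deletion, and control and knockout below mean the groups as labelled. In whole-organ RNA, fewer cells of a type and less RNA per cell cannot be told apart.

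The catalytic genes of the immunoproteasome were higher in knockout testes, while the constitutive genes they replace changed little. Psmb8 rose 5.69-fold and Psmb10 rose 1.71-fold in FPKM, and both passed the test, a limma fit on log2(FPKM + 1) over 13778 genes with Benjamini-Hochberg adjustment at 0.05. Psmb9 was 2.90-fold higher in FPKM, under the filter of that fit. Psmb8 met the same filter only through its level in the knockout libraries. None of Psmb5, Psmb6 and Psmb7 moved by more than 12.5% in mean FPKM, and only Psmb6 passed, in the downward direction. Across all genes tested, 35.2% were called higher and 33.7% lower, so a call by itself does not set a subunit gene apart here.

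Psmb8 (ENSMUSG00000024338, chromosome 17, 34197721 to 34201454, plus strand, GRCm38) encodes the immune subunit with chymotrypsin-like activity. Its level was 0.578, 0.751 and 0.634 FPKM in controls 1 to 3 and 3.14, 4.04 and 4.0 FPKM in knockouts 1 to 3. The lowest knockout library was above every control library. The log2 fold change was 1.51 (SE 0.11, limma adjusted p = 3.96e-06), on a scale whose added 1 FPKM understates changes of genes this low. The control mean of 0.654 FPKM was under the filter of 1 FPKM, which Psmb8 met only through the knockout libraries. With no filter on low values the log2 fold change was again 1.51 (limma adjusted p = 4.4e-06). Behind these values stood 15, 28 and 21 reads in controls and 106, 122 and 124 reads in knockouts, and the exact Poisson 95% intervals of counting error reached at most 40.5 reads in a control and began at 86.8 reads or more in a knockout.

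Psmb10 (ENSMUSG00000031897, chromosome 8, 105935728 to 105938392, minus strand) encodes the immune subunit with trypsin-like activity. It was at 4.73, 5.49 and 6.05 FPKM in controls and 8.12, 10.3 and 9.45 FPKM in knockouts, again without overlap. The log2 fold change was 0.68 (SE 0.10, limma adjusted p = 0.000358), smaller than that of Psmb8. Psmb10 had the highest FPKM of the immune genes in every library, but its lead narrowed. The FPKM of Psmb10 was 8.19, 7.31 and 9.54 times that of Psmb8 in controls and 2.58, 2.56 and 2.36 times in knockouts.

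Psmb9 (ENSMUSG00000096727, chromosome 17, 34181988 to 34187764, minus strand) encodes the third immune subunit, which takes the place of the caspase-like Psmb6. It was the lowest of all members, at 0.403, 0.301 and 0.384 FPKM in controls and 0.843, 1.06 and 1.25 FPKM in knockouts, and the groups did not overlap. With no filter on low values its log2 fold change was 0.59 (limma adjusted p = 0.00167). Recovered reads were 14, 15 and 17 in controls and 38, 43 and 52 in knockouts, and limma-voom on reads without a filter, an alternative added after seeing the data, gave a log2 fold change of 1.51 (adjusted p = 0.000718). Psmb9 shares 212 exon bases (5.8% of its exon length) with Tap1 on the opposite strand, and Psmb8 shares 14.7% with the antisense gene Gm20496. The strand setting of the counting is not given in the sources used here, so reads in the shared bases could belong to either gene.

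**Figure D1:**
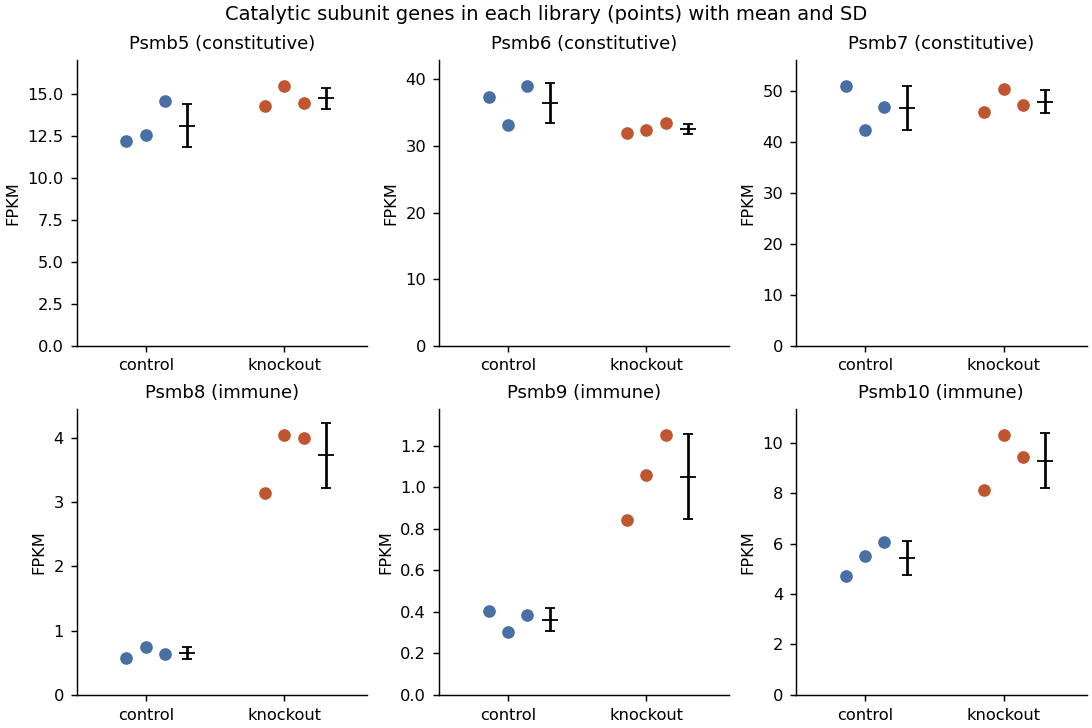
FPKM of the constitutive (upper row) and immune (lower row) catalytic subunit genes in each library, with points for libraries and bars for the mean and SD of 3 libraries a group, each panel on its own axis from 0. The control and knockout points of Psmb8, Psmb9 and Psmb10 are separated, whereas those of Psmb5, Psmb6 and Psmb7 overlap.

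Among the constitutive catalytic genes, Psmb5 (chymotrypsin-like, chromosome 14, 54614120 to 54617995) was at 12.2, 12.6 and 14.6 FPKM in controls and 14.3, 15.5 and 14.5 FPKM in knockouts. Its groups overlapped through control 3, and the log2 fold change of 0.16 (SE 0.068) did not pass (limma adjusted p = 0.062), though without control 3 it was 0.24 and passed (adjusted p = 0.00292). Psmb6 (caspase-like, chromosome 11, 70525367 to 70527858) was at 37.3, 33.1 and 39.0 FPKM in controls and 32.0, 32.4 and 33.4 FPKM in knockouts. It passed narrowly (log2 fold change -0.16, SE 0.059, limma adjusted p = 0.0442) with overlapping groups, and in 8 of 16 alternatives it did not pass, among them the fits without control 1 (adjusted p = 0.118), control 3 (0.119), knockout 1 (0.119), knockout 2 (0.103) and knockout 3 (0.0666). Psmb7 (trypsin-like, chromosome 2, 38588036 to 38644087) was at 50.9, 42.3 and 46.8 FPKM in controls and 45.9, 50.3 and 47.2 FPKM in knockouts, with a log2 fold change of 0.04 (SE 0.068, limma adjusted p = 0.654). The knockout libraries of Psmb7 all lay within the range of the controls, and its change turned negative with equal table totals (-0.065, adjusted p = 0.352). Psmb7 shares 11.8% of its exon bases with Nek6 on the opposite strand, and Gm3375 holds a copy of Psmb5 at 98.9% identity over 796 bases.

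Because FPKM is per length of exon, the immune and constitutive genes were set against each other within a library. Such a ratio does not depend on how the libraries were scaled. The exon length used for a gene need not be the length of its transcript. The ratio of 1 gene to another within a library, and the immune share, depend on those lengths. The fold between groups of a single pair's ratio does not. The summed FPKM of Psmb8, Psmb9 and Psmb10 was 5.71, 6.54 and 7.07 in controls and 12.1, 15.4 and 14.7 in knockouts, and that of Psmb5, Psmb6 and Psmb7 was 100.3, 87.9 and 100.4 in controls and 92.2, 98.1 and 95.0 in knockouts. The immune sums of the groups were apart, 2.19-fold in the mean, while the constitutive sums overlapped. The immune genes therefore held 5.38%, 6.93% and 6.57% of the catalytic FPKM in controls and 11.6%, 13.6% and 13.4% in knockouts, so constitutive transcripts still made up most of it in both groups. The ratio of the sums was 2.20-fold higher in knockouts, 0.148 ± 0.0144 against 0.0672 ± 0.00917 (mean ± SD, n = 3), and stayed between 2.04-fold and 2.32-fold when any 1 library was left out.

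The gap differed in size among the replaced pairs. The FPKM ratio of Psmb8 to Psmb5 was 0.0473, 0.0598 and 0.0434 in controls and 0.219, 0.261 and 0.276 in knockouts, a 5.02-fold difference of means. The ratio of Psmb9 to Psmb6 was 0.0108, 0.00909 and 0.00984 in controls and 0.0263, 0.0329 and 0.0376 in knockouts, 3.25-fold higher. The ratio of Psmb10 to Psmb7 was 0.093, 0.13 and 0.129 in controls and 0.177, 0.206 and 0.2 in knockouts, 1.66-fold higher. Every knockout library exceeded every control library in all 3 ratios, and the ratios are given as descriptions without a test.

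**Figure D2:**
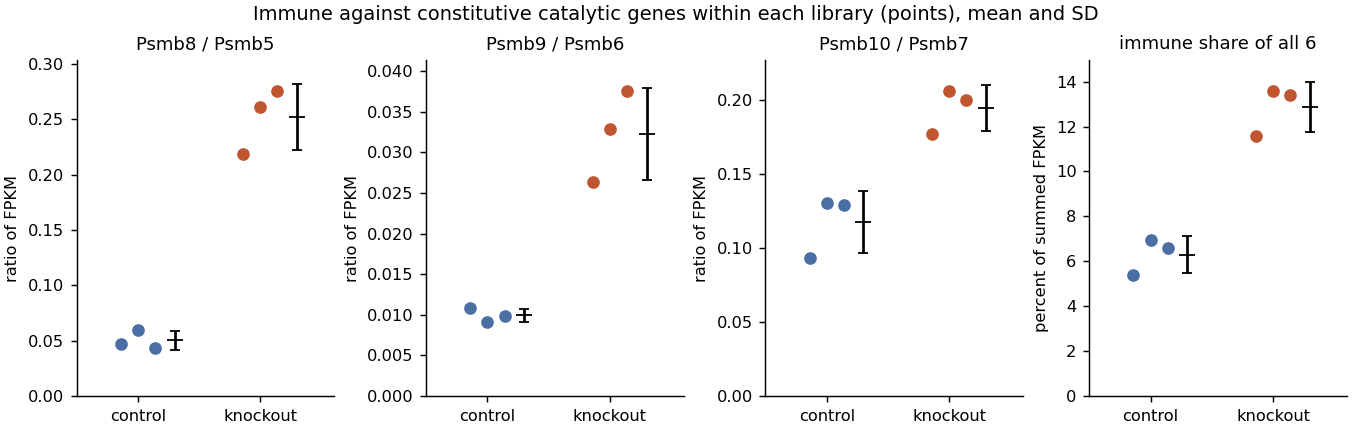
Ratio of FPKM of each immune gene to the constitutive gene it replaces, and the immune share of the summed FPKM of all 6 catalytic genes in percent, in each library (points) with the mean and SD of 3 libraries a group. Knockout libraries lie above control libraries in each panel, and the separation in fold is widest for Psmb8 over Psmb5 (5.02-fold).

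Markers of leukocytes moved with the immune subunits. All 13 macrophage markers of the list found in the table rose (Adgre1 was not in it), and their summed level was 77.2 to 88.5 FPKM in controls and 562.1 to 652.4 FPKM in knockouts. All 6 markers shared by leukocytes rose as well, from 14.0 to 15.7 FPKM in sum to between 94.7 and 114.0 FPKM. Both counts stand beside 35.2% of all genes called higher and 33.7% called lower. Of 11 T and NK lymphocyte markers only 2 were in the table, and their sum was 7.97 to 13.0 FPKM in controls and 0.832 to 1.77 FPKM in knockouts. The B cell markers (3 of 4 in the table) summed to 2.02 to 2.32 FPKM and 1.74 to 2.52 FPKM, and the dendritic cell markers (2 of 5) to 8.46 to 9.36 FPKM and 10.3 to 11.0 FPKM. No listed marker in the table was at 0 in every library. The part of these cells in the rise of Psmb8, Psmb9 and Psmb10 was not tested.

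Of 13 listed genes that carry the interferon signal to the immune subunits, 8 rose, 3 fell and 2 did not pass, beside 35.2% higher and 33.7% lower over all genes. Their median log2 fold change was 0.26 against 0.01 over all genes, with equal table totals 7 were called higher and 3 lower, and Ifng itself was not in the table. Irf8, an interferon regulatory factor of myeloid and B cells, rose 2.74-fold from a mean of 2.09 to 5.74 FPKM, and Irf1, which drives transcription of immune subunit genes, rose 1.48-fold from 6.39 to 9.49 FPKM. The receptor chains Ifngr1 and Ifnar2 rose 1.66-fold and 1.42-fold, Irf2 rose 1.29-fold, and the kinase Jak2 and the factor Irf9 each rose 1.20-fold. In the other direction, Nlrc5, the transactivator of MHC class I genes, was at 1.26, 1.38 and 1.86 FPKM in controls and 0.689, 0.459 and 0.701 FPKM in knockouts. The receptor chain Ifngr2 fell to 0.818 of the control FPKM and Stat2 to 0.781. Both chains of the interferon gamma receptor thus passed the test in opposite directions.

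Of the 8 genes that take the peptides onward to MHC class I, 5 rose, none fell and 3 did not pass (median log2 fold change 0.21), beside 35.2% higher and 33.7% lower over all genes. With equal table totals 3 were called higher and none lower (median 0.11). B2m, the light chain of class I molecules, rose 1.54-fold, from 77.9, 63.9 and 75.4 FPKM to 106.6, 115.0 and 113.0 FPKM. Tap1, the peptide transporter gene whose start lies next to that of Psmb9, was at 1.5, 1.35 and 1.18 FPKM in controls and 2.07, 2.45 and 2.21 FPKM in knockouts (1.67-fold, limma adjusted p = 0.00239). Its partner Tap2 (chromosome 17, 34203527 to 34216321), on the other side of Psmb8, was at 1.37, 1.40 and 1.25 FPKM in controls and 1.07, 1.39 and 1.38 FPKM in knockouts and did not pass (log2 fold change -0.04, adjusted p = 0.752). Within this stretch of chromosome 17, then, Psmb9, Tap1 and Psmb8 were higher in knockouts in FPKM without overlap of the groups, and Tap2 overlapped. The other genes past the test were Tapbp (1.21-fold), the trimming peptidase Erap1 (1.18-fold) and the chaperone Canx (1.15-fold).

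Taking all 46 tested members, 25 were called, where 68.9% of all genes were. Of these 18 were higher and 7 lower, and 21 members did not pass, with a median log2 fold change of 0.10 against 0.01 over all genes. That is 39.1% called higher beside 35.2% of all genes, and 15.2% called lower beside 33.7%. The groups did not overlap for 23 members that were higher and 6 that were lower, where 37.9% and 36.3% of all genes did not overlap. Changes were mostly small: over all 46 tested members, called or not, the median absolute log2 fold change was 0.15, against 0.30 over all genes, and Psmb8 was the only member past the test that moved more than 2-fold, against 15.0% of genes. Members were also more abundant than most genes, with a median of 25.7 FPKM against 8.73.

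The split between higher and lower depended on the scaling. When each library was rescaled so that the FPKM of the table had equal totals, 13 members were called higher and 12 lower, against 27.9% and 42.6% of all genes, and the median moved to 0.00 with that of all genes at -0.09. Of the 25 members called in the main fit, 16 passed in every alternative that tested them. The 13 higher ones were Psmb8, Psmb10, Psmd8, Psmd10, Psma1, Psma7, Psmb3, Psmg3, Psmc4, Psmc6, Psmd3, Psmd6 and Psmd14, and the 3 lower ones were Psma8, Psmd2 and Psmg2. Single libraries also mattered. Control 2 was the lowest control for 31 of the 46 members, against 39.2% of all genes, and without it 17 members were called higher and 10 lower. Without control 3 the counts were 19 and 5. Leaving out a knockout library gave fewer calls in all, 17 and 5 without knockout 1, 15 and 4 without knockout 2, and 15 and 5 without knockout 3. The shares of all genes called in these fits are not reported here.

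**Figure D3:**
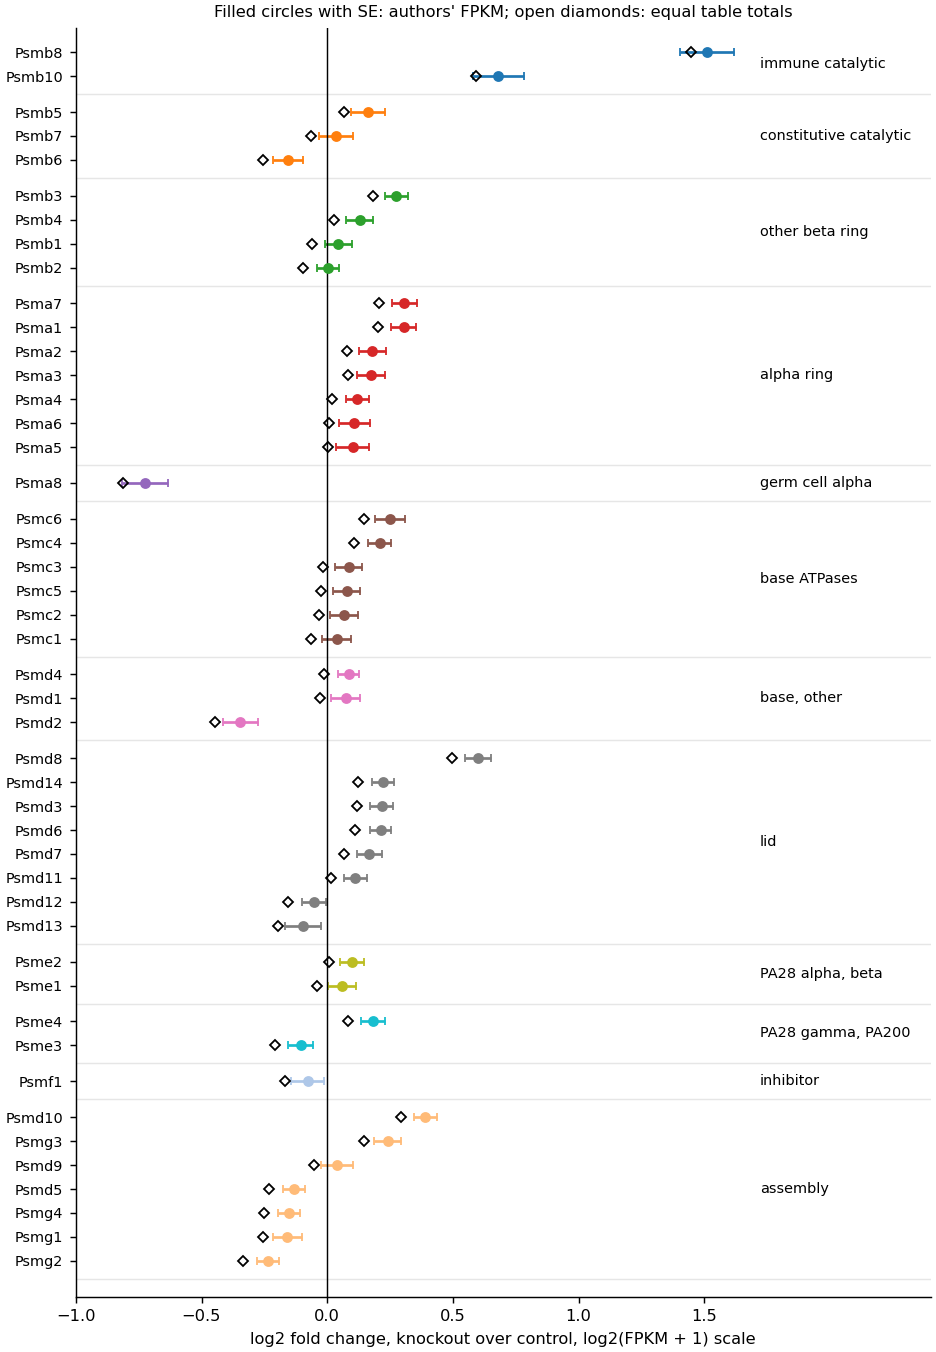
Log2 fold change of knockout over control on the log2(FPKM + 1) scale for the 46 tested members, ordered by role, with filled circles and SE bars for the authors' FPKM and open diamonds for libraries set to equal table totals. Psmb8 (1.51) and Psmb10 (0.68) lie to the right of the other catalytic genes, Psma8 (-0.72) lies farthest to the left, and rescaling shifts every member to the left by a similar amount.

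The structural genes of the constitutive 26S particle, 31 in all, were expressed at mean levels of 7.33 to 74.5 FPKM. Of these, 13 rose, 2 fell and 16 did not pass, beside 35.2% higher and 33.7% lower over all genes, with a median log2 fold change of 0.11. With equal table totals 9 were called higher and 5 lower with a median of 0.02. Control 2 was the lowest control in 25 of them. In the alpha ring, which gates entry to the core, 5 of 7 genes rose and 2 did not pass. With equal table totals, or without knockout 3, 2 of the 7 were called higher, and without knockout 2 the number was 3. Psma7 changed most, at 24.2, 21.4 and 22.9 FPKM in controls and 27.4, 29.1 and 28.9 FPKM in knockouts (log2 fold change 0.31, SE 0.051, limma adjusted p = 0.000716). Psma5 changed least, at 18.6, 15.7 and 18.8 FPKM against 19.0, 19.1 and 18.8 FPKM (log2 fold change 0.10, limma adjusted p = 0.20). The highest control and the lowest knockout of Psma5 were the same to 3 digits, whereas the groups of Psma7 were apart.

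Among the beta-ring genes without catalytic activity, 1 of 4 rose, or 2 without control 3, when Psmb4 also passed (adjusted p = 0.0227). Over all genes, 35.2% were called higher and 33.7% lower in the main fit. Psmb3 was at 9.39, 9.45 and 9.48 FPKM in controls, the tightest controls in this ring, and 11.5, 11.3 and 12.0 FPKM in knockouts (log2 fold change 0.28, SE 0.047, limma adjusted p = 0.000761). Psmb2 was level, at 38.2, 36.3 and 39.6 FPKM against 37.3, 38.3 and 38.7 FPKM (log2 fold change 0.00, adjusted p = 0.936), and its change turned negative with equal table totals (-0.097, adjusted p = 0.0288).

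In the base, 2 of the 6 ATPase genes rose and the others did not pass, beside 35.2% higher and 33.7% lower over all genes. Psmc6 was at 61.4, 54.5 and 54.1 FPKM in controls and 64.3, 69.1 and 69.2 FPKM in knockouts (log2 fold change 0.25, SE 0.058, limma adjusted p = 0.00471), and the groups did not overlap. Psmc1 was at 63.6, 55.5 and 63.9 FPKM in controls and 62.6, 61.6 and 63.4 FPKM in knockouts (log2 fold change 0.04, adjusted p = 0.581). Psmd2 (ENSMUSG00000006998, chromosome 16, 20651652 to 20663414), the base scaffold that docks ubiquitin shuttles, fell, at 49.8, 42.7 and 51.6 FPKM in controls and 36.9, 37.0 and 38.6 FPKM in knockouts. All 3 knockout libraries were below the lowest control (log2 fold change -0.35, SE 0.068, limma adjusted p = 0.00181). Its FPKM was 1.32, 1.27 and 1.56 times that of Psmd1, the other large base scaffold, in controls and 1.05, 0.975 and 1.04 times in knockouts. Psmd4, a ubiquitin receptor, was at 26.9, 24.7 and 25.7 FPKM in controls and 27.2, 27.3 and 27.8 FPKM in knockouts and did not pass (log2 fold change 0.09, adjusted p = 0.0965), but passed without control 1 (adjusted p = 0.0403), as did Psmd1 (0.0445). A transcript of Gm5422 matches Psmd2 over 2726 bases at 96.4% identity, so reads could be shared between them.

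The lid held the largest rise outside the catalytic genes. Psmd8 (ENSMUSG00000030591, chromosome 7, 29174188 to 29180673) was at 47.8, 43.4 and 47.4 FPKM in controls and 67.1, 71.6 and 72.8 FPKM in knockouts, far from overlapping. The log2 fold change was 0.60 (SE 0.052, limma adjusted p = 1.35e-05), 1.53-fold in FPKM. Relative to the lid gene Psmd12, the FPKM of Psmd8 was 1.13, 1.11 and 1.08 in controls and 1.65, 1.81 and 1.81 in knockouts, so the lid genes did not keep 1 ratio. In all, 5 of 8 lid genes rose and 3 did not pass, beside 35.2% higher and 33.7% lower over all genes. Among those that rose was the deubiquitinase Psmd14 (1.17-fold). With equal table totals 4 lid genes were called higher and 2 lower, against 27.9% and 42.6% of all genes. Psmd13 had the lowest log2 fold change of the lid, at levels of 19.0, 17.2 and 21.4 FPKM in controls and 17.9, 17.4 and 18.2 FPKM in knockouts (log2 fold change -0.10, adjusted p = 0.253), and was called lower without control 2 (-0.17, adjusted p = 0.0371). It shares 10.1% of its exon bases with Sirt3 on the opposite strand.

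Psma8 (ENSMUSG00000036743, chromosome 18), the alpha subunit that replaces Psma7 in meiotic germ cells, fell to 0.565 of the control level. It was at 8.65, 8.89 and 8.93 FPKM in controls and 4.94, 4.22 and 5.78 FPKM in knockouts, with a log2 fold change of -0.72 (SE 0.092, limma adjusted p = 0.000139). The ratio of its FPKM to that of Psma7 was 0.357, 0.415 and 0.391 in controls and 0.18, 0.145 and 0.2 in knockouts. Germ cell markers moved with it: 5 of the 6 tested fell and 1 rose, with a summed level of 226.8 to 263.8 FPKM in controls and 75.0 to 108.9 FPKM in knockouts. Of 7 meiotic markers 5 fell and 2 did not pass, with sums of 76.9 to 94.8 FPKM and 29.1 to 58.8 FPKM, and no marker in either list was at 0 in every library. Of the Sertoli cell markers 8 of 10 fell as well and 2 rose (370.4 to 401.0 FPKM in sum in controls and 178.5 to 195.3 FPKM in knockouts). All 6 Leydig cell markers fell (659.5 to 748.5 and 296.6 to 339.2 FPKM). Other somatic markers did not share this fall: the macrophage and leukocyte markers rose. Of 6 endothelial markers 3 rose, 1 fell and 2 did not pass (93.9 to 101.1 and 106.6 to 122.0 FPKM in sum). All these marker counts stand beside 35.2% of all genes called higher and 33.7% called lower. Knockout 2, the lowest library for Psma8, was also the lowest for both germ cell sums. The part of any of these cells in the fall of Psma8 was not tested.

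**Figure D4:**
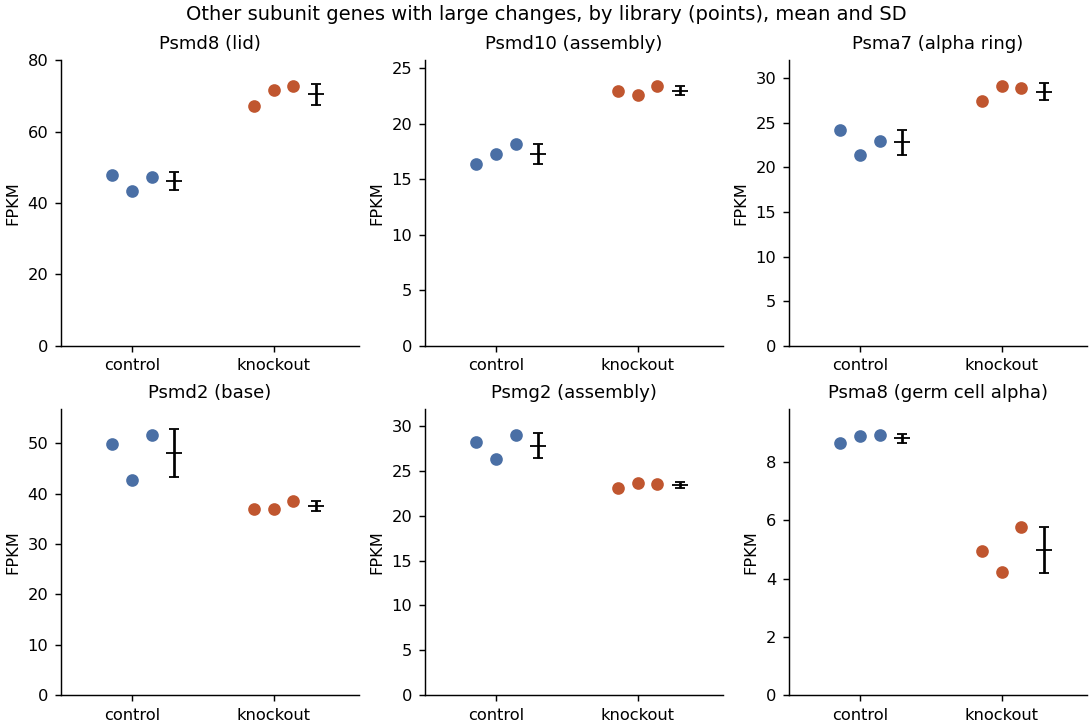
FPKM of 6 other members in each library (points) with the mean and SD of 3 libraries a group, on axes from 0. Psmd8, Psmd10 and Psma7 are higher in all 3 knockout libraries, and Psmd2, Psmg2 and Psma8 are lower in all 3.

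The activators, which open the core without ATP, moved little. Psme1 and Psme2 form the PA28 cap that interferon gamma induces together with the immune subunits, and neither passed. Psme1 was at 22.5, 20.0 and 19.6 FPKM in controls and 22.2, 20.9 and 21.6 FPKM in knockouts (log2 fold change 0.06, SE 0.056, limma adjusted p = 0.377), with overlapping groups. Psme2 was at 8.96, 8.66 and 8.80 FPKM in controls and 9.34, 9.70 and 9.50 FPKM in knockouts (log2 fold change 0.10, SE 0.048, adjusted p = 0.0921), separated but by 8.02% of the mean. Psme2b, a gene whose transcript matches Psme2 at 99.4% identity over 794 bases, is also in the table, so the reads of Psme2 may be split between them.

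Of the nuclear activators, Psme3 was at 40.2, 37.5 and 40.8 FPKM in controls and 38.4, 34.8 and 36.7 FPKM in knockouts (log2 fold change -0.11, limma adjusted p = 0.0918), and it was called lower without control 2 (-0.14, adjusted p = 0.0361) and with equal table totals (-0.21, adjusted p = 0.00333). Psme4, the PA200 cap that acts on acetylated histones in spermatogenesis, was at 23.1, 21.4 and 20.8 FPKM in controls and 24.4, 25.3 and 24.8 FPKM in knockouts. It rose by 14.0% in mean FPKM (log2 fold change 0.18, SE 0.047, limma adjusted p = 0.00724) but did not pass with equal table totals (0.08, adjusted p = 0.137). The inhibitor Psmf1 was at 6.84, 6.95 and 7.76 FPKM in controls and 6.98, 6.83 and 6.42 FPKM in knockouts (log2 fold change -0.08, adjusted p = 0.316). Psme1 and Psmf1 had overlapping groups and Psme4 did not.

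Among the roles with 4 or more genes, only the assembly chaperones had more genes lower than higher in the limma fit. The counts were 2 higher, 4 lower and 1 not past, also with equal table totals. Over all genes, 35.2% were called higher and 33.7% lower, or 27.9% and 42.6% with equal table totals. Psmd10, the base chaperone also called gankyrin, was at 16.4, 17.3 and 18.2 FPKM in controls and 23.0, 22.6 and 23.4 FPKM in knockouts (log2 fold change 0.39, SE 0.046, limma adjusted p = 8.15e-05). Psmg2, which pairs with Psmg1 to start the alpha ring, was at 28.2, 26.3 and 29.0 FPKM in controls and 23.1, 23.7 and 23.6 FPKM in knockouts (log2 fold change -0.24, SE 0.044, limma adjusted p = 0.0014). Neither gene had overlapping groups. Psmg3, which pairs with Psmg4, rose 1.20-fold, while the base chaperone Psmd5 and the genes Psmg4 and Psmg1 fell by 9.33%, 10.5% and 10.9% in mean FPKM. The call of Psmg1 was lost without control 1 (adjusted p = 0.0869), control 3 (0.0858), knockout 1 (0.123) or knockout 2 (0.0553), and that of Psmd5 without knockout 2 (0.0794) or knockout 3 (0.0522), so without knockout 2 the chaperones stood at 2 higher and 2 lower. With limma-voom on recovered reads, Psmg1 (adjusted p = 0.0774) and Psmg4 (0.20) did not pass. In the authors' deposited DESeq comparison none of the 4 lower genes reached an FDR of 0.05 (Psmg2 0.145, Psmd5 0.338, Psmg1 0.407, Psmg4 0.628). Of the higher genes, Psmd10 did (0.000236) and Psmg3 did not (0.145). The core maturation factor Pomp, outside the naming rule, was at 60.9, 56.1 and 61.9 FPKM in controls and 74.3, 82.3 and 78.7 FPKM in knockouts, 1.32-fold higher (adjusted p = 0.000259).

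Other genes of the pathway moved in both directions, and their counts stand against 35.2% of all genes called higher and 33.7% lower (27.9% and 42.6% with equal table totals). Of 10 proteasome partners outside the naming rule 4 rose, 3 fell and 3 did not pass (3 higher and 4 lower with equal table totals), and the deubiquitinase Uchl5 had the smallest p (1.39-fold, limma adjusted p = 5.21e-05). Among 5 regulators of proteasome genes 3 rose and none fell, or 1 and none with equal table totals. Nfe2l2, the oxidative stress factor NRF2, was at 23.6, 22.3 and 22.2 FPKM in controls and 31.8, 32.1 and 32.8 FPKM in knockouts (1.42-fold, limma adjusted p = 9.32e-06), and Keap1, its inhibitor, rose 1.16-fold. Nfe2l1, which encodes the factor NRF1 that restores proteasome gene transcription when the protease is blocked, was level at 37.2 ± 0.811 and 37.7 ± 0.752 FPKM (mean ± SD, n = 3) and did not pass (adjusted p = 0.689). Of 9 shuttle and segregase genes 4 rose, 1 fell and 4 did not pass, among the former the shuttle Rad23b (1.22-fold), whereas with equal table totals 3 were called higher and 4 lower. Of 9 ubiquitin-conjugating enzymes and ligases 3 rose, 3 fell and 3 did not pass (2 higher and 3 lower with equal table totals). The list was led by the ligase Ube4b, which fell from 31.0 to 19.6 FPKM. Next came the conjugating enzyme Ube2g2, which rose from 12.4 to 17.4 FPKM. Of the 4 ubiquitin genes only Ubb was called in the main fit, lower at 19.3 against 25.7 FPKM with overlapping groups. With equal table totals 2 of the 4 were called lower and none higher. None of the genes named here moved as much as 2-fold in mean FPKM.

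In the authors' deposited table, 16 members were higher and 2 lower at an FDR of 0.05, against 31.3% and 29.2% of all genes, and 15 and 2 of these were also called in the limma fit. Among the members past in every alternative of the limma fit, Psmg2 and Psmg3 missed that FDR (0.145 each). The log2 fold changes of the immune genes in the authors' deposited table were 2.54 for Psmb8, 1.59 for Psmb9 and 0.82 for Psmb10.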

How the data were processed

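Whole-testis RNA of 6 libraries was aligned with STAR per the labels' protocols, and the submitters' processing notes name GRCm38 and DESeq2 1.22.2. No source used here gives the counting tool or strand setting. The FPKM per library were computed by the authors and deposited for 14998 genes, and per the file headers the same table holds log2 fold changes, −log10 values and p-values of their own comparison. Every gene was fitted with limma 3.58.1 (R 4.3.3, intensity trend, two-sided) on log2(FPKM + 1), over the 13778 genes whose mean reached 1 FPKM, and p-values adjusted by Benjamini-Hochberg were called under 0.05. A fold change in FPKM is the ratio of the means. The test was also run on counts simulated around the observed means, with a small part of the genes changed. In the data 68.9% of genes were called, so that simulation does not measure the error rate here.

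FPKM were whole multiples of 1 read for 14997 genes (tolerance 0.003 reads). The read total of each library was set with GENCODE M21 exon lengths. Each gene then took the smallest length that made its values whole in all 6 libraries, or a multiple within 1 base of GENCODE. Recovered reads of a gene therefore need not rest on its GENCODE length. The whole reads were tested with limma-voom, which called 9452 of 13777 genes and 23 members. Poisson intervals cover counting error only. Near-copies were sought with BLAST 2.17.0 (at least 95% identity over 200 bases). The members, gene lists and tests were chosen with earlier results of these data known. Values in every library were given for catalytic genes, Psma8, activators and the inhibitor, and in each other role for the members with the largest and smallest log2 fold change. From other pathway lists came the 2 genes of smallest p, and all interferon and peptide loading genes past the test. A few genes chosen this way are left unreported. Alternatives were other pseudocounts, filters and scalings, no trend, a replicate block and leaving out each library. Tables and figures used Python 3.11.15, pandas 2.3.3 and matplotlib 3.10.9.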

Additional observations from a re-analysis of the deposited data

How the results depend on the processing

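Across up to 16 alternatives for each member, 658 values kept direction and side of the threshold, 19 passed newly, 36 no longer passed and 18 changed sign. The 7 members called lower became 12 with equal table totals and 4 with limma-voom on recovered reads, an alternative added after seeing the data. Leaving out each library gave 19 to 27 members called, 15 to 20 higher and 4 to 10 lower. The immune to constitutive ratio stayed at 2.04-fold to 2.32-fold. With equal table totals, which shift every gene downward by construction, the log2 fold change changed sign for Psmd4 (-0.014), Psmc3 (-0.016), Psmc5 (-0.025), Psmd1 (-0.028), Psmc2 (-0.031), Psme1 (-0.040), Psmd9 (-0.051), Psmb1 (-0.059), Psmc1 (-0.064), Psmb7 (-0.065) and Psmb2 (-0.097). Leaving out 1 library also turned the sign, without control 2 for Psmb1 (range over libraries left out -0.011 to 0.07), Psmc1 (-0.028 to 0.07), Psmb7 (-0.031 to 0.10, also without knockout 2) and Psmb2 (-0.027 to 0.03, also without knockout 3), and without control 1 for Psmd9 (-0.008 to 0.07). None of these members passed in the main fit, and the cause of the leave-one-out changes was not tested. Deviations of same-numbered libraries correlated at -0.007, -0.016 and 0.097 across genes, and those of differently numbered libraries at -0.158 to 0.142. The numbers thus gave no sign of pairing, but correlations this variable cannot exclude it. A replicate block gave 24 calls, 17 higher and 7 lower, and Psma4 alone lost its call (adjusted p = 0.0536). With 14 to 28 reads in controls, Psmb8 and Psmb9 are limited by depth.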
